A study of Mus musculus with 4 samples.

Results

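The mitochondrially encoded genes were taken as all genes whose symbol begins with mt-, which gave 37 of the 55536 genes of the deposited gene tables. They are 13 protein-coding genes, 2 rRNA genes and 22 tRNA genes, all on the mitochondrial chromosome of mm10. The study sequenced polyA RNA of inflammation-experienced regulatory T cells (Treg) from 1 male adult mouse of 6 months, strain Foxp3CreERT2 x Rosa26YFP. The labels trace the cells to bone marrow haematopoietic cells. Treg are the CD4 T cells that restrain immune responses, and this strain carries a tamoxifen-dependent Cre recombinase at Foxp3 and a YFP reporter at Rosa26. There was 1 group, and its 4 libraries are labelled as technical replicates 1 to 4 of biological replicate 1, so no conditions could be compared and every p-value below measures only the spread between technical libraries. No uninflamed control population was analysed here.

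The libraries held 9284432, 9341328, 9325636 and 6648385 expected counts in the gene tables. All 5 Treg markers of the list were detected, with a summed level of 1105 to 1546 TPM (a level corrected for transcript length) per library, and Foxp3, the defining factor, stood at 20.3, 21.7, 32.8 and 36.4 TPM in libraries 1 to 4. The summed level of 5 T cell markers was 7378 to 7987 TPM. Library 1 stood apart in red cell transcripts, with 1065 summed TPM over 5 erythroid genes against 4.60, 38.6 and 17.2 TPM in libraries 2 to 4.

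The mitochondrial genome is a small circle transcribed from each strand as long precursors. In most places tRNAs sit between the mRNAs and rRNAs, and the enzymes that excise the tRNAs also free their neighbours. Mitochondrial mRNAs receive short poly(A) tails from the polymerase Mtpap, and in several of them the tail completes the stop codon. The proteins are core subunits of complexes I, III, IV and V of oxidative phosphorylation, which activated and regulatory T cells use to make ATP, and every other subunit comes from the nucleus.

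Of the 13 coding genes, 3 ended 1 base past a whole codon in the GENCODE M21 annotation (mt-Co3, mt-Nd4 and mt-Cytb) and 10 had a whole stop codon. Their last 24 bases are shown because only the tailed RNA carries the stop codon, with the stop letters encoded by the genome in capitals, beside 2 genes with a whole stop. All sequences are from the GENCODE M21 transcripts, 5′ to 3′ on the gene's own strand.
mt-Co3: tctccatttattgatgaggatctT
mt-Nd4: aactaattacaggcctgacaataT
mt-Cytb: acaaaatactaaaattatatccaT
mt-Atp6: ctatatctacatgataatacaTAA
mt-Nd5: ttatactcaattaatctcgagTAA
These 3 genes did not stand together in level: mt-Co3 had the highest mean of the coding genes at 9858 TPM, mt-Cytb had 4540 TPM and mt-Nd4 1266 TPM.

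Several genes overlap. mt-Atp8 and mt-Atp6 share 43 bases and mt-Nd4l and mt-Nd4 share 7 bases on the same strand. The last 2 bases of mt-Nd1 and of mt-Nd2, part of their annotated stop codons, also lie in the same-strand tRNA genes mt-Ti and mt-Tw. mt-Nd5 and mt-Nd6, the only coding gene on the minus strand, share 14 bases on opposite strands. The serine tRNA gene mt-Ts1 lies on the minus strand and overlaps the end of mt-Co1 by 3 bases, shown in capitals in both sequences below. The strand setting of the counting is not given in the sources used here, so reads of these opposite-strand pairs cannot be told apart with certainty.
mt-Co1, its last 30 bases: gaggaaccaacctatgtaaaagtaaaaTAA
mt-Ts1, whole: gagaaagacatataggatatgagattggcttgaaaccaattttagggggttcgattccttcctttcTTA

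Mitochondrial genes took 2.73% of the gene table's counts in library 1, 3.75% in library 2, 3.64% in library 3 and 3.90% in library 4, a mean of 3.51 ± 0.528% (SD, n = 4). The Wilson 95% intervals of the single libraries, which cover counting error only, were 2.72 to 2.74%, 3.74 to 3.76%, 3.63 to 3.66% and 3.89 to 3.92%. Library 1 was the lowest and did not overlap the others. Without it the mean was 3.77 ± 0.131% (SD, n = 3). The chi-square test of homogeneity gave 21775 on 3 degrees of freedom over the 4 libraries and 727 on 2 degrees of freedom without library 1, so libraries 2 to 4 also differed by more than counting error. In bulk RNA, fewer cells with many mitochondria and less mitochondrial RNA per cell cannot be told apart. The labels do not say whether the technical replicates were separate sorts, RNA aliquots or library preparations. Differences in cells and in handling therefore cannot be told apart either. The 13 coding genes made up 2.63 ± 0.358% of counts (SD, n = 4), the 2 rRNA genes 0.874 ± 0.181%, and the 22 tRNA genes 3, 3, 1 and 1 counts per library. By mean count, 5 members were among the 20 highest genes of the whole table. mt-Co1 was at rank 4, mt-Rnr2 at rank 5, mt-Co3 at rank 8, mt-Cytb at rank 16 and mt-Atp6 at rank 18.

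Per unit of transcript length, the coding genes spread from 507 to 9858 TPM, with a median of 2102 ± 199 TPM (SD of the library medians, n = 4). The complex IV and V genes and mt-Cytb were the highest and all 7 complex I genes stood below them. In complex IV, cytochrome c oxidase, which passes electrons to oxygen, mt-Co3 was at 8781, 10586, 10119 and 9947 TPM in libraries 1 to 4 (mean 9858 ± 767; SD, n = 4). mt-Co1, the catalytic subunit with its haem and copper sites, was at 5626, 7499, 7052 and 7767 TPM. mt-Co2, which receives electrons from cytochrome c, was at 3803, 4468, 4338 and 5036 TPM. Library 1 was the lowest for each of these 3 genes.

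In complex V, the ATP synthase, mt-Atp6 forms the proton channel beside the rotor and was at 6827, 8062, 7932 and 8715 TPM in libraries 1 to 4. Its small partner mt-Atp8 was at 3447, 3837, 3621 and 4228 TPM, a log2 difference of -1.06 ± 0.06 from mt-Atp6 (SD, n = 4). The mt-Atp8 level rests on a short effective length, 46.7 of 204 bases, and on 1105 to 1363 expected counts per library, whereas mt-Atp6 had 24130 to 32281. mt-Cytb, the cytochrome b of complex III, was at 3959, 4868, 4569 and 4765 TPM.

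The complex I genes encode membrane subunits of the NADH dehydrogenase, and their median was 730 ± 76.5 TPM (SD of the library medians, n = 4). mt-Nd1 was the highest, at 1823, 2175, 2289 and 2123 TPM in libraries 1 to 4. mt-Nd4 followed at 1088, 1320, 1289 and 1367 TPM. mt-Nd5 was at 881, 999, 1092 and 1173 TPM. In the gene table mt-Nd1, mt-Nd4 and mt-Nd5 lay above all others of complex I in each library. In the direct table, a second set of estimates, mt-Nd5 was instead the lowest of the 13 coding genes at a mean of 493 TPM, and mt-Nd3, at 698 TPM, lay above mt-Nd4, at 685 TPM. mt-Nd2 was at 623, 756, 739 and 803 TPM. mt-Nd6, on the opposite strand to all other coding genes, was at 552, 658, 690 and 799 TPM. In the gene table mt-Nd5 exceeded the overlapping mt-Nd6 by a log2 difference of 0.62 ± 0.06 (SD, n = 4). The direct table turned this direction in every library, with mt-Nd5 at 422, 479, 495 and 574 TPM and mt-Nd6 at 461, 587, 601 and 667 TPM. The shortest genes of complex I were the lowest in the gene table, with mt-Nd3 at 442, 605, 604 and 681 TPM and mt-Nd4l at 422, 526, 539 and 542 TPM.

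**Figure D1:**
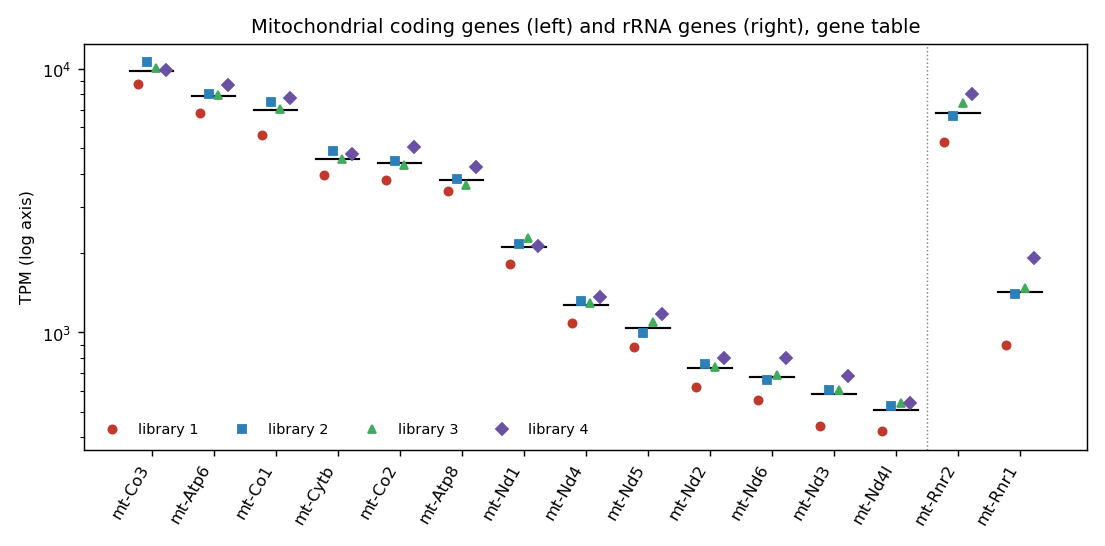
TPM of the 13 coding genes, ordered by mean, and of the 2 rRNA genes, on a log axis. Each symbol is 1 library and each bar the mean of 4, and library 1 is the lowest symbol for every gene.

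The order of mean TPM in the gene table was mt-Co3, mt-Atp6, mt-Co1, mt-Cytb, mt-Co2, mt-Atp8, mt-Nd1, mt-Nd4, mt-Nd5, mt-Nd2, mt-Nd6, mt-Nd3 and mt-Nd4l. Of the 12 pairs of neighbours, 11 had the same order in all 4 libraries, and in 9 of them the mean log2 difference also exceeded 2 SD. The widest step was from mt-Atp8 down to mt-Nd1, 0.85 ± 0.14 on the log2(TPM + 0.1) scale (SD, n = 4). mt-Cytb and mt-Co2 did not differ beyond their spread, at 0.04 ± 0.09, and kept their order in 3 of 4 libraries. mt-Nd2 and mt-Nd6 differed by 0.12 ± 0.09 and mt-Nd3 and mt-Nd4l by 0.19 ± 0.11, both under 2 SD. With 4 libraries the two-sided exact sign-flip permutation test cannot go below p = 0.125, so no pair could pass it. The order depended on the estimate. Of the 12 pairs 7 kept their order in the direct table, where mt-Atp8 was highest. With the TPM of nuclear copies added to the genes they match, or with TPM from posterior mean counts, mt-Atp6 was above mt-Co3.

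The 2 rRNA genes make the RNA of the mitochondrial ribosome and are not the aim of a polyA library. mt-Rnr2, the large-subunit rRNA, was at 5284, 6602, 7429 and 8011 TPM in libraries 1 to 4, in the range of the highest coding genes. mt-Rnr1, the small-subunit rRNA, was at 900.0, 1397, 1481 and 1916 TPM. The large one exceeded the small one by 2.30 ± 0.20 on the log2 scale (SD, n = 4), with 2.55 in library 1 and 2.06 in library 4. The mitochondrial ribosome is built from both in equal numbers. The median of the 2 rRNA genes stood above that of the coding genes by a log2 ratio of 0.76, 0.88, 0.96 and 1.23 in libraries 1 to 4 (mean 0.96 ± 0.20).

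Between libraries, all 15 members with a mean of at least 10 expected counts, the 13 coding and 2 rRNA genes, differed by more than counting error (Poisson likelihood ratio test on edgeR's TMM-scaled library sizes, Benjamini-Hochberg adjusted p under 0.05 over 13045 genes). None of the 22 tRNA genes passed that filter on counts. By the same test 68.6% of all tested genes were called, and 96.0% of the 1725 genes with a mean of at least 1000 counts, so the calls themselves do not set the members apart. The direction was common to the members: all 15 were called and lowest in library 1, as were 18.4% of all tested genes. Called or not, 28.0% of all tested genes and 26.1% of those with at least 1000 counts were lowest there. The ratio of the highest to the lowest library had a median of 1.38 in the members, 1.49 in all tested genes and 1.31 in those of at least 1000 counts. Without library 1, 14 of 15 members were called, the exception being mt-Nd4l (adjusted p = 0.52 by the same Poisson test over all genes), beside 53.9% of all genes tested, and 87.9% of those with at least 1000 counts. The median ratio was then 1.16 in the members, 1.36 in all tested genes and 1.23 in those of at least 1000 counts.

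The direction was the same in the other tables. In the direct table, which estimates counts from the reads without a genome alignment, 20 of 26 members with at least 10 counts were called beside 62.5% of all its genes, and all 20 were lowest in library 1. In whole-number counts on the older GENCODE M4 annotation, 8 of 8 members were called beside 78.4% of all genes, again with all 8 lowest in library 1. For these sets of counts the share of all genes called and lowest in library 1 was not computed. They come from the same reads as the gene table, so they are not replicates of it.

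mt-Rnr1 differed most. It had 539, 921, 948 and 1225 CPM (counts scaled to the library total, not corrected for length) in libraries 1 to 4, a ratio of 2.21 between the highest and lowest library after scaling and 1.32 without library 1. mt-Rnr2 had 5684, 7845, 8566 and 9217 CPM, a ratio of 1.58. Both rRNA genes were lowest in library 1 and highest in library 4. Among the coding genes mt-Nd3, at 60.8, 89.9, 87.2 and 99.6 CPM, had a ratio of 1.59 and mt-Co1, at 5894, 8677, 7917 and 8701 CPM, one of 1.51. mt-Atp8, at 125, 146, 135 and 166 CPM, had the smallest ratio over all libraries, 1.29. Without library 1 its ratio of 1.25 was instead the widest of the coding genes.

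**Figure D2:**
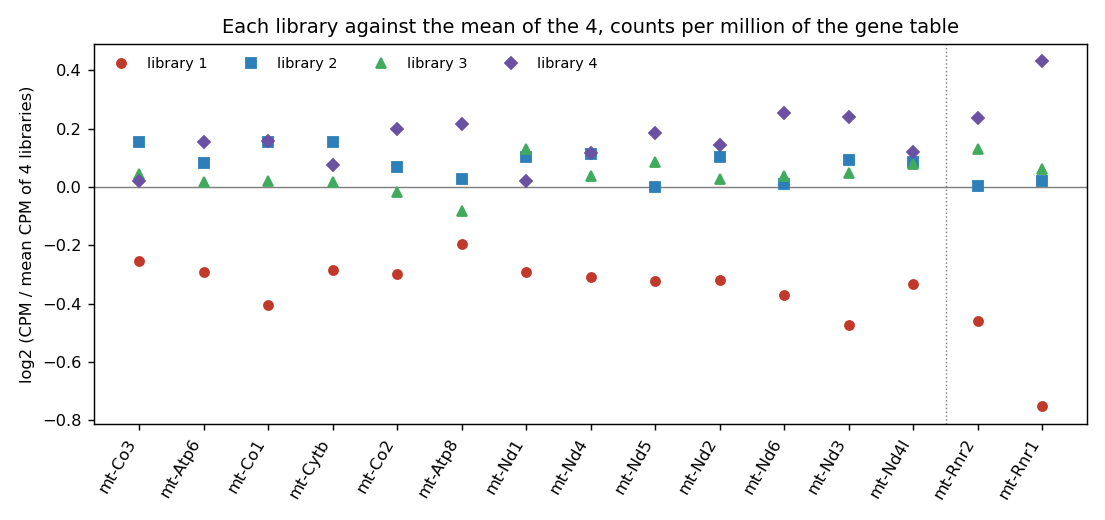
Log2 of each library's CPM over the mean CPM of the 4 libraries, for the 13 coding genes and the 2 rRNA genes. Library 1 is below 0 for all 15 genes, from -0.19 for mt-Atp8 to -0.75 for mt-Rnr1, and library 4 is the highest for both rRNA genes.

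Each coding gene was then set against the summed counts of the 13 coding genes, a sum that includes it. With all 4 libraries, every ratio of highest to lowest library was smaller than in the scaled counts. All 13 genes were lowest in library 1, so part of this narrowing was built in. Without library 1 the ratio was not smaller for mt-Nd1 (1.15 against 1.12), mt-Nd5 (1.14 against 1.09) and mt-Nd6 (1.189 against 1.184). mt-Nd4 held 4.75%, 4.67%, 4.72% and 4.70% of that sum in libraries 1 to 4, a ratio of 1.02 between highest and lowest. mt-Nd2 held 1.95 ± 0.0263% and mt-Cytb 13.6 ± 0.341% (SD, n = 4). The widest ratios of proportions among coding genes were 1.21 for mt-Nd3, 1.19 for mt-Nd6 and 1.18 for mt-Atp8. mt-Co1 was 29.5 ± 1.13% of coding counts and mt-Co3 18.7 ± 0.902%. By contrast, mt-Rnr1 equalled 2.55%, 3.21%, 3.52% and 4.28% of the coding sum, a ratio of 1.68, and 1.33 without library 1. mt-Rnr2 equalled 26.9%, 27.3%, 31.8% and 32.2%.

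The summed level of each list of markers of other cells was highest in library 1. Each marker of these lists was also highest there, except Cd79b of the B cell list and Pf4 and Itga2b of the platelet list. The erythroid list, 5 of 5 genes matched and none at 0 in all libraries, summed to 1065 TPM there, with Hba-a2 at 396 TPM against 0.670 to 14.4 TPM in libraries 2 to 4. Myeloid markers summed to 39.0 TPM in library 1 and 7.60 to 20.8 TPM in the others, B cell markers to 177 TPM against 79.0 to 149 TPM, and 3 platelet markers to 1.27 TPM against 0.790 to 1.10 TPM. Of the Treg markers, Foxp3, Ctla4, Ikzf2 and Tnfrsf18 were lowest in library 1. Il2ra was instead highest in library 1, at 214 TPM against 198 to 205 TPM in the others. The summed T cell markers were not lowest in library 1, at 7575 TPM against 7378 TPM in library 4. The part of these differences in the low mitochondrial share of library 1 was not tested.

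Reads of several members can also come from nuclear DNA. Copies of mitochondrial DNA inserted in nuclear chromosomes are common in mammals, and 17 nuclear genes of the annotation aligned to a mitochondrial transcript at 90% identity or more over at least 100 bases. Of these, 7 lay side by side on the minus strand at chr1:24611535-24616197 (mm10), 4663 bases in the order of mitochondrial positions 6390 to 11042. That mitochondrial interval covers the whole of mt-Co2, mt-Atp8, mt-Atp6, mt-Co3, mt-Nd3 and mt-Nd4l, 5 tRNA genes, and parts of mt-Co1 and mt-Nd4. Each of these coding genes except mt-Atp8 has an annotated copy there. Over their aligned lengths Gm28661 matched mt-Co2, Gm10925 mt-Atp6, Gm28437 mt-Co3, Gm10222 mt-Nd4l and Gm28439 the first 876 bases of mt-Nd4 without a difference (identity 100%).

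Gm28438, the copy of mt-Nd3, differed from it by T3C, counted from 1 at the first base of mt-Nd3, which lies in the start codon. The first 30 bases of both are shown because this is the only difference between them over 345 aligned bases, in capitals.
mt-Nd3: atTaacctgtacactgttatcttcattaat
Gm28438: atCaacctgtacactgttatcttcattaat
Gm29216 matched 483 bases at the end of mt-Co1, from base 1063, at 99.8% identity. Within them it differed by A1066T, numbered along mt-Co1. Just before them it also differed by T1056A, C1057T, A1059G, A1060G and C1062A.

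The gene table gave the 7 chromosome 1 copies 31323, 37463, 35407 and 25594 expected counts in libraries 1 to 4, 0.376 ± 0.0272% of all counts (SD, n = 4). The other 10 copies together had 14.8 to 34.4 counts per library. With the chromosome 1 copies added, the share of mitochondrial sequence was 3.07%, 4.15%, 4.02% and 4.29%, again lowest in library 1. Gm10925 had 12877, 14068, 12545 and 10036 counts, which was 30.7 ± 2.41% of the counts of it and mt-Atp6 together. Gm28661 held 27.1 ± 4.08% of its pair with mt-Co2, with 5760, 6243, 7724 and 3978 counts. Gm29216, the copy of the end of mt-Co1, had 8582, 13202, 10934 and 7177 counts. For several pairs the split between copy and gene differed with the estimate. Gm28437 took 9.14 ± 1.91% of its pair with mt-Co3 by expected counts and 35.4 ± 1.91% by the posterior mean counts of the same table. Gm28438, with its base difference from mt-Nd3, went from 2.29 ± 3.34% to 18.8 ± 7.70%, whereas Gm28439, without a difference from the start of mt-Nd4, had 0 expected counts and 0.0781% by posterior mean counts. The direct table gave Gm28437 0.0473% of its pair with mt-Co3, Gm10925 0.958% of its own pair and Gm28661 under 1 count. It gave Gm29216 15.1% of its pair with mt-Co1, beside 12.9% by expected counts and 12.9% by posterior mean counts. Gm29216 aligned to only 483 of the 1545 bases of mt-Co1, so its share of counts is not like those of the other pairs. Corrected for length in the gene table, Gm29216 had a mean of 4398 TPM and mt-Co1 6986 TPM.

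The M4 counts, made from a genome alignment, held the 13 coding genes. For 5 of the 6 genes that lie wholly in the copied stretch they were near 0. mt-Co2 had 0, 0, 0 and 1 counts in libraries 1 to 4 and mt-Co3 1, 6, 5 and 8, against 13862 to 17994 and 33086 to 50971 expected counts in the gene table. mt-Atp8, mt-Atp6 and mt-Nd4l had at most 2 counts in any library. The exception was mt-Nd3, with 374, 463, 500 and 509 counts, 0.593 ± 0.0823 of its expected counts after scaling the matched genes to the same total (SD, n = 4). Among the wholly covered genes with an annotated copy, mt-Nd3 was also the only one that differed from it in sequence.

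The partly copied mt-Co1 and mt-Nd4 had M4 to gene table ratios of 1.12 ± 0.0319 and 0.948 ± 0.0116 (SD, n = 4). The 5 coding genes outside the stretch had ratios of 1.63 for mt-Cytb to 2.68 for mt-Nd6. The median over the 7199 matched genes with at least 100 expected counts in every library was 1.06, with quartiles of 0.673 and 1.43. In M4 counts the 5 outside genes alone made up 1.08% of all counts in library 1 and 1.40% or more in libraries 2 to 4.

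The direct table gave lower TPM than the gene table for most genes, with a median ratio of 0.554 over 11871 genes. For the coding and rRNA genes outside the copied stretch the ratio was 0.476 for mt-Nd5 to 0.858 for mt-Nd6. Inside it ran from 0.619 for mt-Co3 to 1.87 ± 0.0587 for mt-Atp8 (SD, n = 4), which at 6155, 7367, 6870 and 7861 TPM was the highest coding gene of the direct table. mt-Nd3 and mt-Nd4l, also short, had ratios of 1.198 and 1.109. The shortest genes thus held other places in the order of levels in the direct table.

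**Figure D3:**
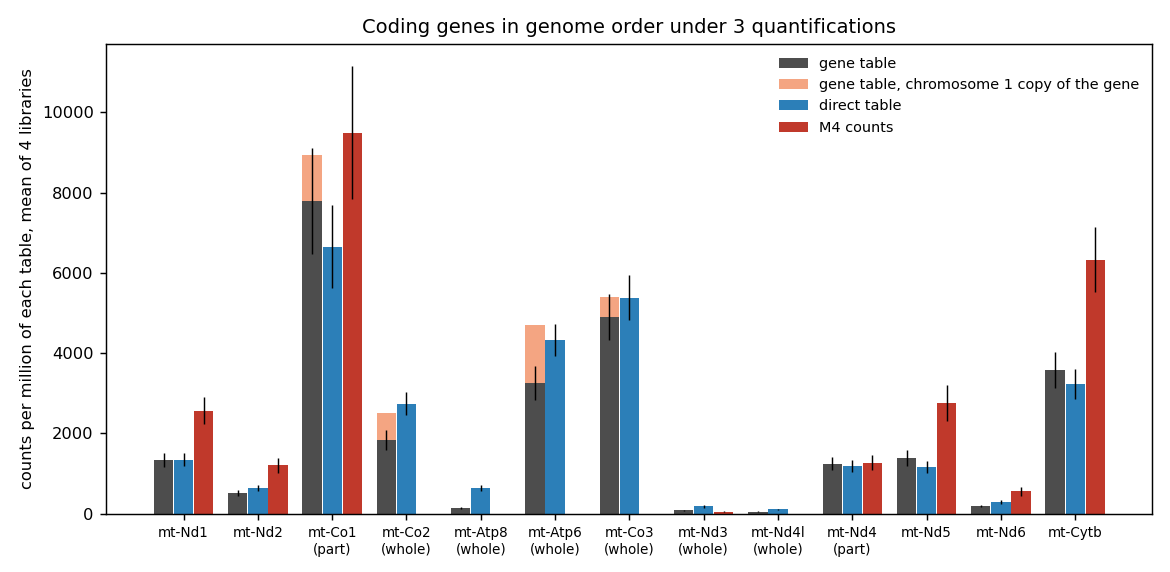
CPM of the 13 coding genes in genome order under 3 quantifications, as bars from 0 with the mean and SD of 4 libraries, and stacked on the gene table bar the mean for the chromosome 1 copy. Genes wholly or partly in the copied stretch are marked, and mt-Co2, mt-Atp8, mt-Atp6, mt-Co3 and mt-Nd4l have no visible bar in M4 counts.

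The tRNA genes were nearly unmeasured in the gene table. Their transcripts are 59 to 75 bases long and all 22 had an effective length of 0, and 20 of them had 0 counts in all libraries. The direct table gave them estimated counts, 0.618 ± 0.0281% of its mitochondrial counts (SD, n = 4), and these differed by strand. The 8 minus-strand tRNA genes summed to 2444, 3478, 3504 and 2313 counts in libraries 1 to 4, and the 14 plus-strand genes to 48, 96, 89 and 67. Each minus-strand gene had a mean of 24.3 counts or more. The highest plus-strand gene had a mean of 22.0, so the ranges of the means did not overlap.

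mt-Ts1 held most of the tRNA counts, at 2060, 2887, 2777 and 1836 counts in libraries 1 to 4, which is 79.5 ± 2.71% of them (SD, n = 4). Its counts were 2.96 ± 0.225 per 100 counts of mt-Co1, whose end it overlaps on the other strand. The next highest was the glutamate tRNA mt-Te, between mt-Nd6 and mt-Cytb, with 141, 243, 274 and 160 counts, and then the glutamine tRNA mt-Tq, with 67, 78, 117 and 78. Both are printed because they led the remaining tRNA genes. These 3 tRNA genes were named after their values were seen.
mt-Te: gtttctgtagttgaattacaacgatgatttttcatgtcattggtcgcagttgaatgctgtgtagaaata
mt-Tq: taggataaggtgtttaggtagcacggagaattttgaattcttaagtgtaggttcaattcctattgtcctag
Most minus-strand tRNA genes lie opposite plus-strand precursor RNA, and which strand these reads came from was not tested.

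**Figure D4:**
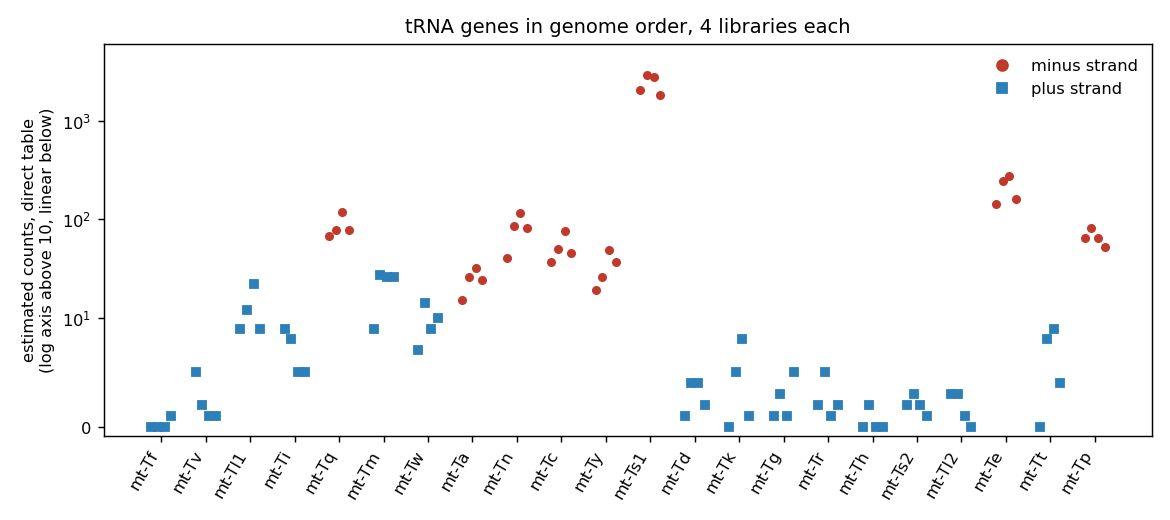
Estimated counts of the 22 tRNA genes in the direct table, in genome order, 1 point per library, on an axis that is linear up to 10 and logarithmic above. The minus-strand genes lie above nearly all plus-strand genes, and mt-Ts1 is highest.

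Set beside their nuclear partners, the mitochondrial genes were higher in every complex that has both. The median of the 13 coding genes exceeded that of 76 nuclear subunit genes, all 76 of which had at least 10 TPM in every library, by a log2 ratio of 3.31, 3.56, 3.56 and 3.54 in libraries 1 to 4 (mean 3.49 ± 0.12, 11.2-fold). In complex I the difference was smallest, 2.30 ± 0.11 (SD, n = 4) between 7 mitochondrial and 36 nuclear genes. By mean TPM each mitochondrial gene of complex I still exceeded the highest nuclear one, Ndufa3, an accessory subunit, at 466 ± 36.4 TPM. In library 1 alone mt-Nd4l, at 422 TPM, was under Ndufa3, at 425 TPM. Next came Ndufa6 at 408 TPM, and the lowest were Ndufb4 at 36.2 and Ndufb2 at 41.5 TPM.

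In complex IV the difference was 4.60 ± 0.17, with Cox4i1, a regulatory subunit, the highest nuclear gene at 858 ± 30.5 TPM, then Cox7a2l at 446 TPM, and Cox7b lowest at 134 and Cox5a at 158 TPM. In complex III it was 4.33 ± 0.21, between mt-Cytb alone and 9 nuclear genes. Uqcrh, which helps bind cytochrome c1, led those at 698 TPM and Uqcr10 stood at 328 TPM, while the Rieske iron-sulfur protein gene Uqcrfs1 was lowest at 64.1 TPM and cytochrome c1, Cyc1, was at 81.0 TPM. In complex V it was 4.27 ± 0.12, with the stalk subunit gene Atp5h at 586 TPM and Atp5c1, for the rotating shaft, at 479 TPM. The lowest there were Atp5k at 134 TPM and Atp5g2, 1 of 3 genes for the rotor ring, at 83.6 TPM. Complex II, which has no mitochondrially encoded subunit, had 4 genes with a median of 167 TPM, from 89.1 TPM for Sdhc to 265 TPM for Sdha. With M4 counts scaled by length the overall log2 ratio was 1.87 ± 0.10, with almost no counts for 5 of the 13 coding genes.

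The median TPM of the nuclear partners was not lowest in library 1. Their library medians were 184, 185, 194 and 183 TPM, whereas those of the mitochondrial coding genes were 1823, 2175, 2289 and 2123 TPM. On the scaled counts of the Poisson test, a scale other than TPM, 60 of the 76 nuclear genes were called between libraries, beside 68.6% of all tested genes. Of the 76, 39 were called and lowest in library 1, a larger share than the 18.4% of all tested genes. Many nuclear partners thus shared the direction of the mitochondrial genes on that scale. Uqcrfs1 varied most of those named, at 80.7, 17.6, 85.3 and 72.7 TPM.

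**Figure D5:**
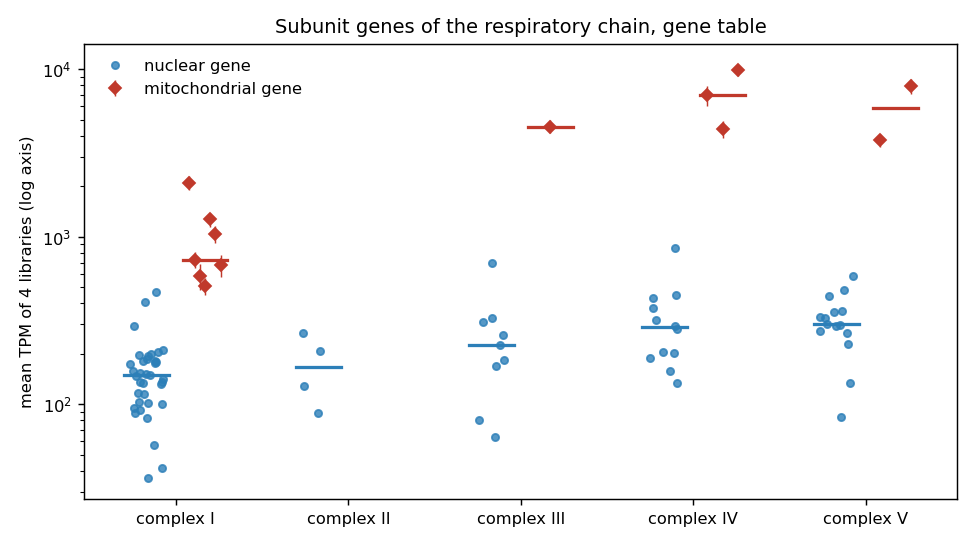
Mean TPM of the nuclear (circles) and mitochondrial (diamonds, with the SD over 4 libraries) subunit genes of each complex, on a log axis, with the median of each set as a bar. By mean TPM every mitochondrial gene lies above all nuclear genes of its complex.

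The nuclear genes that maintain and transcribe the mitochondrial genome were far lower than its products, with a median of 19.1 TPM over 18 genes. Polrmt, the mitochondrial RNA polymerase, was at 24.1, 16.2, 14.6 and 14.5 TPM in libraries 1 to 4. Tfam, the factor that packages the DNA and starts transcription, was at 50.3, 54.1, 70.1 and 74.5 TPM. Polrmt was thus highest and Tfam lowest in library 1, and both were called between libraries (adjusted p = 1.5e-08 and 4.3e-05, Poisson test over all genes). The highest of the list were Mterf3, of the MTERF family, at 87.2 TPM and Ssbp1, the single-strand DNA binding protein, at 84.8 TPM. The lowest were the nuclease gene Mgme1 at 7.70 TPM and Tfb1m, an rRNA methyltransferase, at 8.06 TPM. Of the 18 genes 9 were called between libraries and 5 of them were lowest in library 1, beside 68.6% called and 18.4% called and lowest in library 1 over all tested genes.

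The genes for mitochondrial RNA processing and decay had a median of 24.8 TPM over 22 matched genes. Mtpap, which adds the poly(A) tails, was at 43.3, 41.6, 42.1 and 39.3 TPM in libraries 1 to 4. Lrpprc, which stabilises mitochondrial mRNA, was at 7.12, 6.46, 8.80 and 10.04 TPM, and its partner Slirp at 64.8, 61.2, 63.4 and 59.8 TPM. Pnpt1, an RNA-degrading enzyme, was at 28.4 ± 2.86 TPM (SD, n = 4). Rexo2, an oligoribonuclease, and Hsd17b10, a subunit of the enzyme that cuts the 5′ ends of tRNAs, were the highest at 140 and 99.9 TPM, and Pde12, which removes poly(A), and Grsf1, an RNA-granule protein, the lowest at 2.57 and 4.75 TPM. Of the 22 genes 15 were called between libraries and 1 of them was lowest in library 1, so the calls were near the 68.6% of all tested genes, beside 18.4% called and lowest in library 1.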

How the data were processed

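PolyA RNA of 1 biological replicate was sequenced in 4 technical libraries, numbered by the labels' technical replicate number. The main values were the deposited expected counts, posterior mean counts and TPM per gene (GENCODE M21, from a transcriptome alignment on mm10), per the file headers and the submitters' notes beside the files. The direct table held deposited estimated counts and TPM per transcript, made from the reads with an index, and was summed per gene. Deposited whole-number counts on GENCODE M4 came from a genome alignment. Deposited interval bounds and SDs of the estimates, a signal per gene, were not used for results. Which programs, aligners and strand settings were used is not given in the sources used here.

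The members and lists were chosen with earlier results of these data known. Named are the 13 coding and both rRNA genes, tRNA genes with a mean expected count of at least 10 (none reached it), the 2 highest and 2 lowest genes of each list plus Polrmt, Tfam, Lrpprc, Slirp, Mtpap and Pnpt1, and nuclear copies with a mean count of at least 100. The other copies and tRNA genes named were singled out after their values were seen. The lists matched 76 of 77 nuclear respiratory chain names, 18 of 18 and 22 of 23 others. The unmatched names, Atp5pb and Prorp, were listed beside Atp5f1 and 1110008L16Rik, which were matched. Rows outside the gene annotation, 0.133 to 0.504% of expected counts, were left out.

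Expected counts were rounded for tests. Libraries were compared by a Poisson likelihood ratio test with TMM-scaled sizes (edgeR 4.0.16; DESeq2 1.42.0 size factors as an alternative; R 4.3.3) in genes with a mean of at least 10 counts, Benjamini-Hochberg adjusted at 0.05. It has no term for variation between libraries. Log2 ratios of TPM used a pseudocount of 0.1. M4 counts were divided by effective length (minimum 50 bases) and scaled over 22195 matched genes; 24 members, the rRNA and tRNA genes, were not set against M4. Copies were found with blastn 2.17.0 on GENCODE M21 transcripts. The test was checked on counts simulated from the Poisson model that it assumes, with some genes changed in library 1. Those counts had no other variation between libraries, so the check does not cover calls where libraries vary further. Figures were drawn with matplotlib 3.10.9 and values computed with scipy 1.17.1, pandas 2.3.3 and numpy 2.4.6 in Python 3.11.15. Alternatives were other scalings, filters, tables and pseudocounts, and each library left out. Added after seeing the data were posterior mean counts and copies added to their genes.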

Additional observations from a re-analysis of the deposited data

Results flagged for a closer look

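In 4 of 52 sets of 4 library values examined, 1 library lay far from the other 3, by a test on the gap to the nearest value that chance meets in about 1 of 20 sets. All 4 concern library 1, and they are not independent of each other. mt-Nd4l, a small complex I subunit, was at 422 TPM there against 526 to 542 TPM in libraries 2 to 4. Not corrected for length, mt-Nd4l stood at 42.0 CPM against 56.0 to 57.6 CPM. The log2 ratio of mitochondrial to nuclear complex I subunits was 2.14 in library 1 and 2.35 to 2.37 in the others. Over all complexes together that ratio was 3.31 against 3.54 to 3.56.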

How the results depend on the processing

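Of 53 recomputed values, 42 stayed within the spread between libraries (counts within 1.5 times), 24 of them with a library left out, 11 moved and 0 reversed. Reversed meant a change of sign, which only the log2 ratios could show. For shares, levels, counts and the order of genes, 0 reversed was thus fixed in advance, and pairs that changed order do not appear as reversed. The filter at 10 TPM removed no nuclear gene, so its value equalled the main one by construction. Leaving out a library cannot shift a mean by as much as the SD between libraries. For the values that are means, staying within the spread with a library left out was thus fixed in advance. The mitochondrial share was 2.42% with M4 counts and 2.63% with the 13 coding genes only. With libraries left out it ranged from 3.37 to 3.77%. Called members numbered 8 with M4 counts, where 8 could be tested, 14 to 15 with libraries left out, and 20 of 26 in the direct table (62.5% of all its genes, 78.4% in M4). The coding median was 1192 TPM in the direct table, 1128 with M4 counts and 1677 from posterior mean counts, and 2040 to 2195 with libraries left out. Of the 12 neighbour pairs 7 kept their order in the direct table and 7 with M4 counts, and 12 with any library left out. With the copies added or posterior mean counts mt-Atp6, not mt-Co3, was highest, and by CPM or M4 counts mt-Co1. The rRNA to coding log2 ratio was 1.39 in the direct table and 0.87 to 1.02 with libraries left out. Its M4 version was not run, as the rRNA genes were not matched. The mitochondrial to nuclear log2 ratio was 3.20 in the direct table, 1.87 with M4 counts and 3.47 to 3.55 with libraries left out. The M4 values lack the rRNA genes and have almost no counts for mt-Co2, mt-Atp8, mt-Atp6, mt-Co3 and mt-Nd4l, and the coding-only share leaves out the rRNA genes by construction. For the other values the cause was not tested. No paired analysis was possible because there is only 1 group. The tRNA genes, with an effective length of 0 in the gene table and up to 3 expected counts per library in all, could not be compared there.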
